A study of Mus musculus with 6 samples.

Results

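Nuclear receptors are transcription factors, most of them switched on by small lipophilic molecules, and the liver uses them to sense fatty acids, sterols, bile acids, foreign compounds and hormones. The set described here is 34 receptor genes, given by name as receptors with a role in or near the liver. The rule uses no measured value, but the list was drawn up with earlier results of these data known. Of these, 33 had a probe annotated to that gene alone, among 22180 genes with such a probe. A total of 30 lay at or above the median brightness of all probes, a log2 level of 2.65, and were tested among 13493 genes. Vdr, Nr2f1 and Hnf4g lay below it and are given as levels, and Nr1h2 was not analysed here.

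Livers came from male C57BL/6 mice that were 8 weeks old when acclimatisation began. The Vascepa group had Vascepa, a purified ethyl ester of eicosapentaenoic acid, for 7 days and then 6 weeks of high-fat diet (3 arrays). The vehicle group had vehicle for 7 days and then the same 6 weeks of diet (3 arrays). Both groups thus carried the diet, dosing had ended before it began, and no dose or route is given in the sources used here. The labels do not say that the 3 samples of a group were separate animals, so the p-values cover the spread of the samples alone, and that spread may be technical.

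Many receptors of this set bind DNA as pairs with a retinoid X receptor, recognising repeats of a short half-site. Without ligand many hold corepressor complexes on their target genes, and ligand exchanges these for coactivators. In hepatocytes PPAR alpha switches on fatty acid oxidation, LXR lipogenesis and cholesterol export, FXR the restraint of bile acid synthesis, and PXR and CAR the clearance of drugs and toxins. HNF4 alpha maintains the hepatocyte programme itself.

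Across genes, r between 2 arrays ran from 0.906 to 0.986, and Vascepa replicate 3 had the lowest mean r, 0.938. Small nucleolar RNAs, short nuclear RNAs that guide chemical changes of ribosomal RNA, averaged 5.42, 6.48 and 7.01 on the log2 scale on Vascepa arrays 1 to 3, against 5.57, 6.36 and 5.79 on vehicle arrays 1 to 3 (75 probes). All 8 hepatocyte markers were bright, with a mean log2 level of 12.13, 11.91 and 11.46 on Vascepa arrays 1 to 3, against 12.09, 11.83 and 11.98 on vehicle arrays 1 to 3, as the label liver calls for. Of the adipocyte markers, Adipoq and Lep lay below the median brightness, Plin1 and Retn just above it, and Fabp4, also expressed in macrophages, at 5.39, 5.34 and 6.88 on Vascepa arrays 1 to 3, against 5.77, 6.00 and 5.69 on vehicle arrays 1 to 3.

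By brightness the receptors ran from Nr1h4 (FXR, the bile acid receptor), Hnf4a, Nr5a2 (LRH-1, a partner of FXR signalling), Ppara, Nr1i3 (CAR) and Rxra at the top to Nr1h5, Vdr, Nr2f1 and Hnf4g at the bottom. Nr1h4 averaged 8.85 ± 0.048 in Vascepa livers, against 8.77 ± 0.25 in vehicle livers (log2 intensity, SD, n = 3 each), and Hnf4g 1.53 ± 0.14 in Vascepa livers, against 1.40 ± 0.22 in vehicle livers. Probes differ in how well they hybridise, so this order describes signal and does not compare transcript numbers between genes. Every pair of neighbours in the order overlapped across the arrays except Nr2f1 and Hnf4g.

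**Figure D1:**
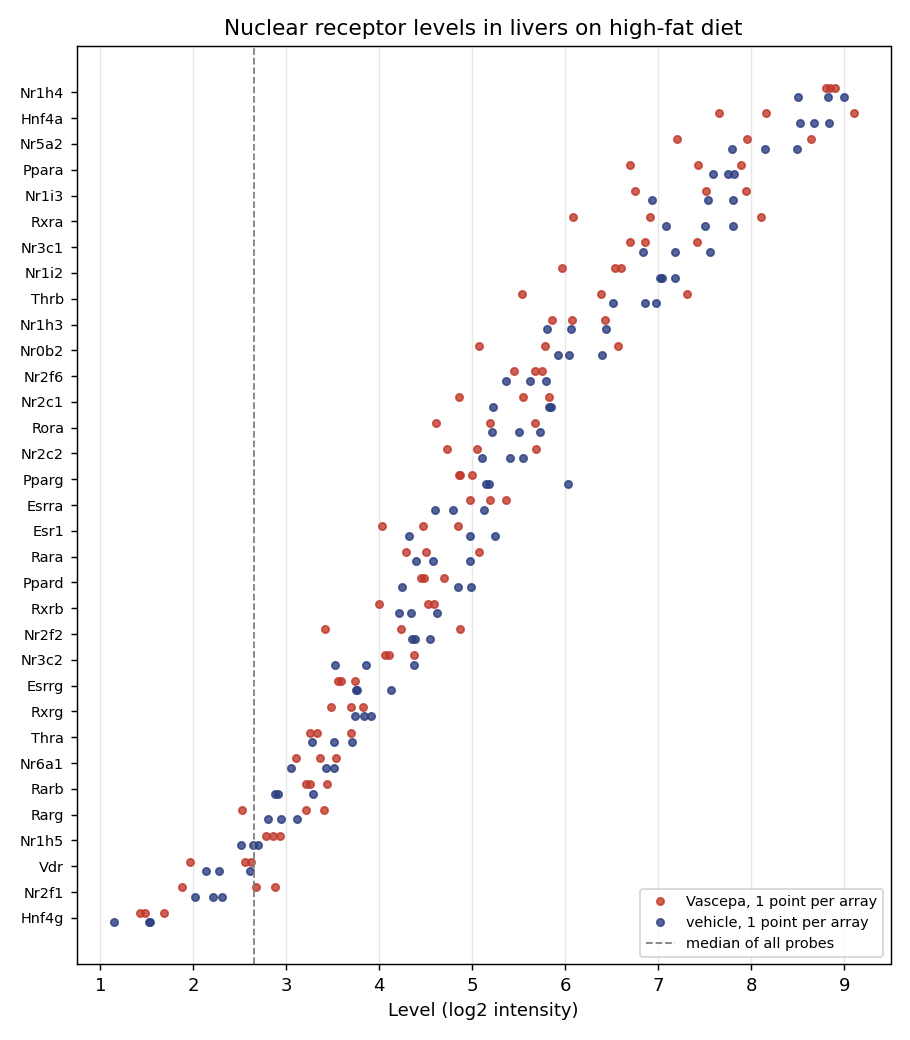
Log2 intensity of 33 nuclear receptors, 1 row per gene with the brightest at the top and 1 point per array, Vascepa in red above vehicle in blue. The dashed line is the median of all probes, 2.65, and the Vascepa points of Nr1i2 all lie left of its vehicle points.

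No receptor passed a Benjamini-Hochberg adjusted p under 0.05 (limma; lowest adjusted p = 0.976), and 0% of the 13493 genes did. By direction alone, 21 of 30 receptors were lower and 9 higher in Vascepa livers, with a median log2 difference of −0.18. With the small nucleolar RNA level as a covariate the tally turned to 13 lower and 17 higher, with a median of 0.0173. Over all genes tested 60.1% were lower, with a median of −0.063, and over genes with a mean level of 5 or more 74.9% were lower. Among the 17 receptors at that level 13 were lower, or 76.5%, a share close to that of bright genes in general. At an unadjusted p under 0.05, 1 receptor was lower, Nr1i2, and 0 were higher, where 1.64% of all genes were lower and 1.04% higher. The groups did not overlap for 3 lower receptors, Nr1i2, Pparg and Esrrg, and for 1 higher receptor, Nr1h5, where 5.11% and 3.13% of all genes separated in these directions. The 95% intervals of the differences reached 0.388 to 1.10 to either side. With array quality weights, where Vascepa replicate 2 counted 39.5 and no other array more than 2.33, 10 receptors passed the adjusted threshold, where 30.4% of all genes did.

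**Figure D2:**
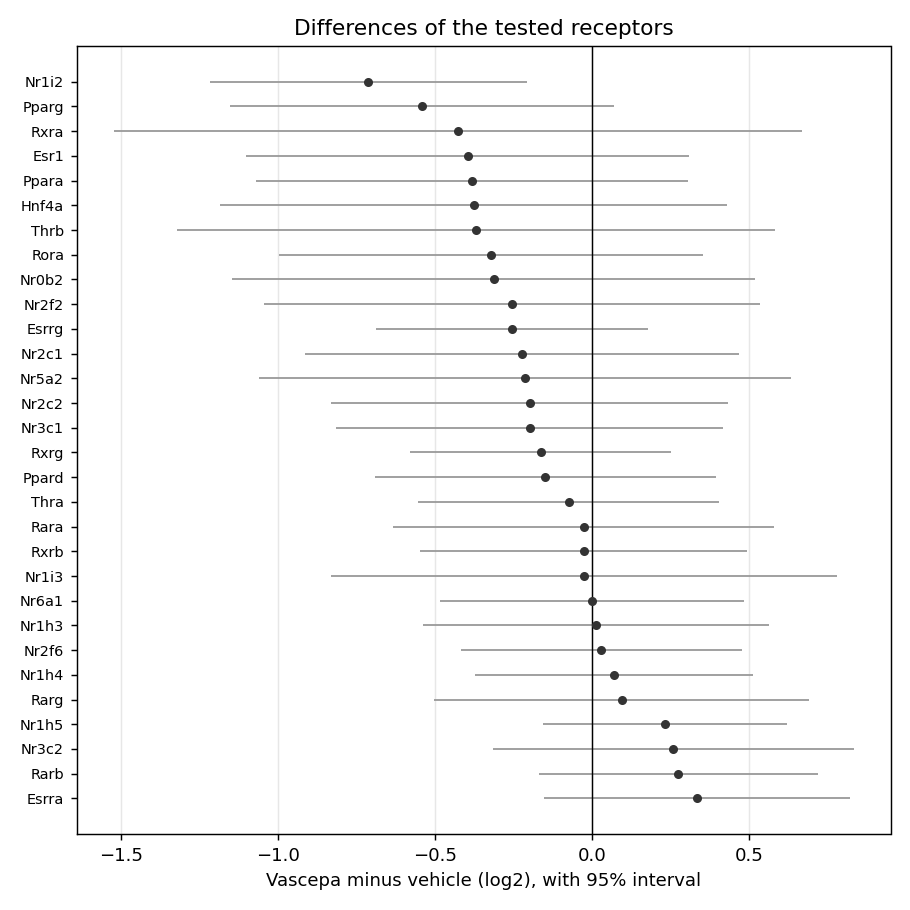
Vascepa minus vehicle log2 difference of the 30 tested receptors with its 95% interval, ordered from the lowest difference to the highest. The interval of Nr1i2, −1.22 to −0.21, is the 1 interval that leaves out 0, before adjustment for the number of genes.

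Among the sensors of foreign compounds, Nr1i2 encodes PXR, which binds drugs, steroids and bile acids. Its log2 level was 6.60, 6.54 and 5.96 on Vascepa arrays 1 to 3, against 7.04, 7.18 and 7.02 on vehicle arrays 1 to 3. Every Vascepa array lay below every vehicle array, and the vehicle arrays were close together (7.08 ± 0.086, against 6.37 ± 0.35 in Vascepa livers, SD, n = 3 each). The difference was −0.71 ± 0.22 (SE), a level 1.64-fold lower in Vascepa livers, with an unadjusted p = 0.0118 and an adjusted p = 0.976 in limma. Without Vascepa replicate 3 it was −0.51. In whole liver, fewer cells of a type and less RNA per cell cannot be told apart.

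Nr1i3 encodes CAR, the companion of PXR, which most often reaches the nucleus through signalling without direct ligand binding. It read 6.74, 7.52 and 7.94 on the Vascepa arrays, against 6.94, 7.80 and 7.54 on the vehicle arrays. The groups overlapped throughout and the difference was −0.02 ± 0.35, with an interval of −0.83 to 0.78. Of the 15 listed CAR and PXR target genes 12 were tested, 9 lower and 3 higher, with a median of −0.14 and 0 at an unadjusted p under 0.05. The smallest p belonged to Abcc3, a basolateral exporter of conjugates (−0.68 ± 0.45), and Slco1a4, an uptake transporter (−0.32 ± 0.22). Measured from the vehicle mean, the median of the list was 0.14, −0.079 and −0.59 on Vascepa arrays 1 to 3, against 0.12, −0.0069 and 0.027 on vehicle arrays 1 to 3. Vascepa replicate 3 was the lowest array and Vascepa replicate 1 the highest.

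Pparg, Rxra, Nr5a2 and Nr1i2 are given with the 250 bases before 1 annotated start each, because Nr1i2 and Pparg had separated groups and Rxra and Nr5a2 varied together across arrays. Sequences are from RefSeq in the build GRCm38.p6, 5′ to 3′ on the gene's strand, and the array files name no build of their own. Capitals mark the receptor half-site AGGTCA, the GC box GGGCGG and the TATA box TATAAA on either strand. 
Nr1i2, minus strand, chr16:38294825-38295074: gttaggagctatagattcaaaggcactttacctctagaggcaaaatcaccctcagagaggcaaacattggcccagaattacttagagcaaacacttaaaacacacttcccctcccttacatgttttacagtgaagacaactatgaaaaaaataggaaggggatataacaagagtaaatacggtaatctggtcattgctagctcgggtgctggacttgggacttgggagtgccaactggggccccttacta
Pparg, plus strand, chr6:115362099-115362348: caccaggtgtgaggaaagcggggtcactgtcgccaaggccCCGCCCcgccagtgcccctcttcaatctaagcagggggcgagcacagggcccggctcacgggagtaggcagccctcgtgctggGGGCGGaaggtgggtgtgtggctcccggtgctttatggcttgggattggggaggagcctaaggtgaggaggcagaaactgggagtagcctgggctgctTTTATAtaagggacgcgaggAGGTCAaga
Rxra, plus strand, chr2:27676951-27677200: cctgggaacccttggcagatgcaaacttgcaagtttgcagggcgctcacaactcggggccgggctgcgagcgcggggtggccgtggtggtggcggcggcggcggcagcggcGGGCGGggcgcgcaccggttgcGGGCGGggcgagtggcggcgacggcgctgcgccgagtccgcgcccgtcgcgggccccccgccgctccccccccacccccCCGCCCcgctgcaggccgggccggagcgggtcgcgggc
Nr5a2, minus strand, chr1:136960449-136960698: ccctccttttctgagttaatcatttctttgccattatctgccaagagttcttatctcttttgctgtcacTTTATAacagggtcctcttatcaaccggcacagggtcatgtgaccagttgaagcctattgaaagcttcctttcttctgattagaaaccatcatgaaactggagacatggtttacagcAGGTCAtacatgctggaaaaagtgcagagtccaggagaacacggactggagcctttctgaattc
The Nr1i2 window held none of the 3 motifs. The Pparg window held 1 half-site, 2 GC boxes and 1 TATA box. The Rxra window held 3 GC boxes, and the Nr5a2 window 1 half-site and 1 TATA box. These 3 genes have further annotated starts that differed. The Rxra window chr2:27709042-27709291 held 2 half-sites alone, and the Pparg window chr6:115360894-115361143 held 1 half-site and 1 GC box. The windows chr6:115421816-115422065 (Pparg) and chr1:136953631-136953880 (Nr5a2) held none of the 3 motifs. Across the 50 annotated starts of 31 receptors, the half-site stood in 9, the GC box in 22 and the TATA box in 5. Of all 32851 starts in the table, 14.0% held the half-site, 32.7% the GC box and 12.4% the TATA box. A match of letters is not evidence of binding.

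In the bile acid branch no receptor reached an unadjusted p under 0.05. Nr1h4 read 8.80, 8.84 and 8.90 on the Vascepa arrays, against 8.50, 8.82 and 8.998 on the vehicle arrays. The Vascepa arrays lay inside the vehicle range, and the difference was 0.07 ± 0.19 with an interval of −0.37 to 0.51. Nr0b2, the SHP gene that FXR switches on and that lacks a DNA-binding domain, read 6.56, 5.78 and 5.08 in Vascepa livers, against 6.04, 6.40 and 5.92 in vehicle livers. Its highest and lowest arrays were both in the Vascepa group, and its difference of −0.31 ± 0.36 was 0.05 without Vascepa replicate 3. Nr5a2 read 8.64, 7.96 and 7.20 on the Vascepa arrays, against 8.49, 7.79 and 8.15 on the vehicle arrays. Its difference was −0.21 ± 0.37 and 0.15 without Vascepa replicate 3.

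Nr1h5, a lanosterol-binding relative of FXR in mice, read 2.78, 2.85 and 2.94 in Vascepa livers, against 2.64, 2.52 and 2.70 in vehicle livers. Every Vascepa array was above every vehicle array, but the level is just above the filter and the difference was 0.23 ± 0.17. Vdr, the vitamin D receptor, read 2.56, 2.62 and 1.97 in Vascepa livers, against 2.28, 2.61 and 2.13 in vehicle livers, and was not tested. Of 9 listed FXR targets 7 were tested, 6 lower and 1 higher, with a median of −0.14. Pltp, which transfers phospholipids between lipoproteins, had the smallest p and read 7.35, 6.91 and 6.97 in Vascepa livers, against 7.84, 7.67 and 8.04 in vehicle livers. All Vascepa arrays of Pltp lay below all vehicle arrays (−0.78 ± 0.20, unadjusted p = 0.00515, adjusted p = 0.976, limma), and Osgin1 followed at −0.61 ± 0.30. Of the 3 genes that FXR and SHP restrain, 2 were lower, with a median of −0.33. These were led by Cyp8b1, the sterol 12-hydroxylase (−0.46 ± 0.27), and Slc10a1, the bile acid uptake carrier (−0.33 ± 0.34).

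Among the lipid sensors, Ppara read 7.89, 7.43 and 6.70 on the Vascepa arrays, against 7.75, 7.59 and 7.82 on the vehicle arrays. Vascepa replicate 1 was the highest array and Vascepa replicate 3 the lowest. The difference was −0.38 ± 0.30, with an interval of −1.07 to 0.31, and −0.06 without Vascepa replicate 3. PPAR alpha binds long-chain fatty acids, the class to which eicosapentaenoic acid belongs. Of 28 listed PPAR alpha targets 25 were tested, 21 lower and 4 higher, with a median of −0.27. Of all genes with a mean level of 5 or more, 74.9% were lower. At an unadjusted p under 0.05, 6 of the listed targets were lower, where 1.64% of all genes were. Abcd2, a peroxisomal transporter, had the smallest p at 5.32, 5.63 and 5.84 in Vascepa livers, against 7.11, 6.66 and 7.18 in vehicle livers. Its groups did not overlap (−1.39 ± 0.23, adjusted p = 0.976, limma), nor did those of Cyp4a14, a fatty acid omega-hydroxylase (−1.01 ± 0.19). The median of this list, measured from the vehicle mean, was −0.38, −0.14 and −0.35 on Vascepa arrays 1 to 3, against −0.14, −0.031 and 0.16 on vehicle arrays 1 to 3. Ppara itself was lowest on Vascepa replicate 3, while this median was low on Vascepa replicates 1 and 3.

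Pparg, which drives lipid storage and is induced in fatty livers, read 4.87, 4.86 and 4.999 on the Vascepa arrays, against 5.18, 5.14 and 6.03 on the vehicle arrays. All Vascepa arrays lay below all vehicle arrays, and vehicle replicate 3 stood above the other vehicle arrays. The difference was −0.54 ± 0.26, a level 1.46-fold lower in Vascepa livers, with an interval of −1.15 to 0.07 and an unadjusted p = 0.0753 (adjusted p = 0.976, limma). Without vehicle replicate 3 it was −0.25. Of 6 listed PPAR gamma targets 5 were tested and 4 were lower, with a median of −0.65. At an unadjusted p under 0.05, 3 were lower, where 1.64% of all genes were. They were the lipid droplet genes Plin4 (−0.65 ± 0.22) and Cidec (−0.95 ± 0.39), and Cd36 (−0.77 ± 0.32). Cd36, a fatty acid uptake gene, was named after its values were seen. The list median lay at −0.51, −0.68 and −0.18 on Vascepa arrays 1 to 3, against −0.19, 0.23 and 0.011 on vehicle arrays 1 to 3. The lower values of these target lists were known from earlier work with these data and are not independent evidence.

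Ppard, the widely expressed PPAR delta, differed by −0.15 ± 0.23. A probe shared by Ppard and 1810013A23Rik read 3.08, 3.55 and 4.66 in Vascepa livers, against 2.98, 3.45 and 3.10 in vehicle livers, and was kept apart because it names more than 1 gene. Nr1h3, the liver's LXR alpha, read 5.85, 6.07 and 6.42 on the Vascepa arrays, against 5.81, 6.44 and 6.07 on the vehicle arrays. The ranges nearly coincided, with a difference of 0.01 ± 0.24 and an interval of −0.54 to 0.56. Of 13 listed LXR targets 12 were tested, 10 lower and 2 higher, with a median of −0.18 and 0 at an unadjusted p under 0.05. Lpcat3, which places polyunsaturated fatty acids into phospholipids (−0.45 ± 0.37), and Abcg5, a sterol exporter (−0.30 ± 0.30), had the smallest p.

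The retinoid X receptors are the shared partners. Rxra, the main form in liver, read 8.11, 6.91 and 6.08 on the Vascepa arrays, against 7.81, 7.08 and 7.50 on the vehicle arrays. The Vascepa arrays spanned both extremes, with an SD of 1.02 in Vascepa livers and 0.37 in vehicle livers. Its spread within groups exceeded that of 97.1% of genes. The difference was −0.43 ± 0.47 and 0.05 without Vascepa replicate 3. Rxrb and Rxrg differed by −0.03 ± 0.23 and −0.16 ± 0.18. The retinoic acid receptors Rara, Rarb and Rarg differed by −0.03 ± 0.26, 0.28 ± 0.19 and 0.10 ± 0.26. Of 7 listed targets of the retinoic acid receptors 5 were tested, 4 lower and 1 higher, with a median of −0.27, led by Tgm2 (−0.52 ± 0.29) and Dhrs3 (−0.46 ± 0.37).

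Among hormone receptors, Nr3c1, the glucocorticoid receptor, read 7.41, 6.86 and 6.70 in Vascepa livers, against 7.55, 6.83 and 7.18 in vehicle livers. The groups overlapped and the difference was −0.20 ± 0.27, or −0.41 without Vascepa replicate 1, −0.051 without Vascepa replicate 3 and −0.016 without vehicle replicate 1. Of its 12 listed targets 9 were lower and 3 higher, with a median of −0.29. At an unadjusted p under 0.05, 1 was lower, where 1.64% of all genes were. That gene was Zbtb16, a transcription factor, at 5.16, 5.93 and 5.05 in Vascepa livers, against 7.36, 6.24 and 6.15 in vehicle livers (−1.20 ± 0.38, adjusted p = 0.976, limma). The groups did not overlap, and vehicle replicate 1 was far above the other arrays. G6pc, the last enzyme of glucose release, followed at −0.57 ± 0.27.

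Thrb, the main thyroid hormone receptor of liver, read 7.31, 6.39 and 5.54 on the Vascepa arrays, against 6.98, 6.51 and 6.85 on the vehicle arrays. Vascepa replicate 1 was the highest array and Vascepa replicate 3 the lowest, and the difference of −0.37 ± 0.41 was 0.07 without Vascepa replicate 3. Thra differed by −0.07 ± 0.21. Of 6 listed thyroid hormone targets 5 were tested, 4 lower and 1 higher, with a median of −0.27, led by the lipogenic enzyme Me1 (−0.41 ± 0.29) and Gpd2 (−0.40 ± 0.35). Esr1, the estrogen receptor alpha, differed by −0.39 ± 0.31, and Nr3c2, the mineralocorticoid receptor, by 0.26 ± 0.25. A further probe, shared by Nr3c2 and Gm10649, read 2.40, 3.15 and 2.99 in Vascepa livers, against 3.07, 3.00 and 2.86 in vehicle livers.

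The remaining receptors have no settled physiological ligand or bind constitutively. Hnf4a read 9.10, 8.16 and 7.65 in Vascepa livers, against 8.84, 8.52 and 8.67 in vehicle livers. Its extremes were Vascepa replicates 1 and 3, and the difference was −0.38 ± 0.35, or −0.05 without Vascepa replicate 3. Of 11 listed HNF4 alpha targets 10 were tested, 6 lower and 4 higher, with a median of −0.056, and the smallest p belonged to F7 (−0.27 ± 0.28) and Apom (0.11 ± 0.19). Esrrg, a regulator of mitochondrial and gluconeogenic genes, read 3.56, 3.74 and 3.59 in Vascepa livers, against 4.13, 3.75 and 3.76 in vehicle livers. The gap between the groups was smaller than the spread within either, and the difference was −0.25 ± 0.19, or −0.13 without vehicle replicate 1. Its relative Esrra, a partner of PGC-1 in oxidative metabolism, differed by 0.34 ± 0.21.

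Rora, which acts on clock and lipid genes, differed by −0.32 ± 0.29, or −0.045 without Vascepa replicate 3, and of its 5 listed targets 3 were lower and 2 higher (median −0.098; Cyp7b1 0.50 ± 0.53, Arntl −0.70 ± 0.78). The testicular receptors Nr2c1 and Nr2c2 differed by −0.22 ± 0.30 and −0.20 ± 0.27, and the COUP-TF family members Nr2f2 and Nr2f6 by −0.25 ± 0.34 and 0.03 ± 0.19. Nr6a1, the germ cell nuclear factor, differed by 0.0009 ± 0.21. Below the filter, Nr2f1 read 2.67, 1.88 and 2.87 in Vascepa livers, against 2.31, 2.21 and 2.02 in vehicle livers. Hnf4g, a close relative of Hnf4a, read 1.48, 1.69 and 1.43 in Vascepa livers, against 1.53, 1.53 and 1.15 in vehicle livers. No tested receptor of this paragraph reached an unadjusted p under 0.05.

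Several bright receptors shared a pattern across arrays that did not follow the groups. Ppara, Hnf4a, Rxra, Thrb, Nr0b2, Nr2f2, Nr2c2, Nr5a2 and Rara, 9 of 30, were highest on Vascepa replicate 1 and lowest on Vascepa replicate 3, a share of 30.0% where 15.5% of all genes did the same. Among receptors at a level of 5 or more it was 7 of 17, or 41.2%, beside 25.8% of all genes at that level. The median receptor at that level was 0.20, −0.29 and −0.78 away from its vehicle mean on Vascepa arrays 1 to 3, against 0.16, −0.23 and 0.024 on vehicle arrays 1 to 3. Small nucleolar RNAs ran the other way, highest on Vascepa replicate 3 and lowest on Vascepa replicate 1. With their level as a covariate 13 receptors were lower and 17 higher, but their part as a cause was not tested. Nr1i3 ran with the small nucleolar RNAs, lowest on Vascepa replicate 1 and highest on Vascepa replicate 3. Without Vascepa replicate 3 the median difference over the 30 receptors was −0.0048, with 15 lower and 15 higher. Without Vascepa replicate 1, 6 receptors were lower at an unadjusted p under 0.05, where 11% of all genes were.

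**Figure D3:**
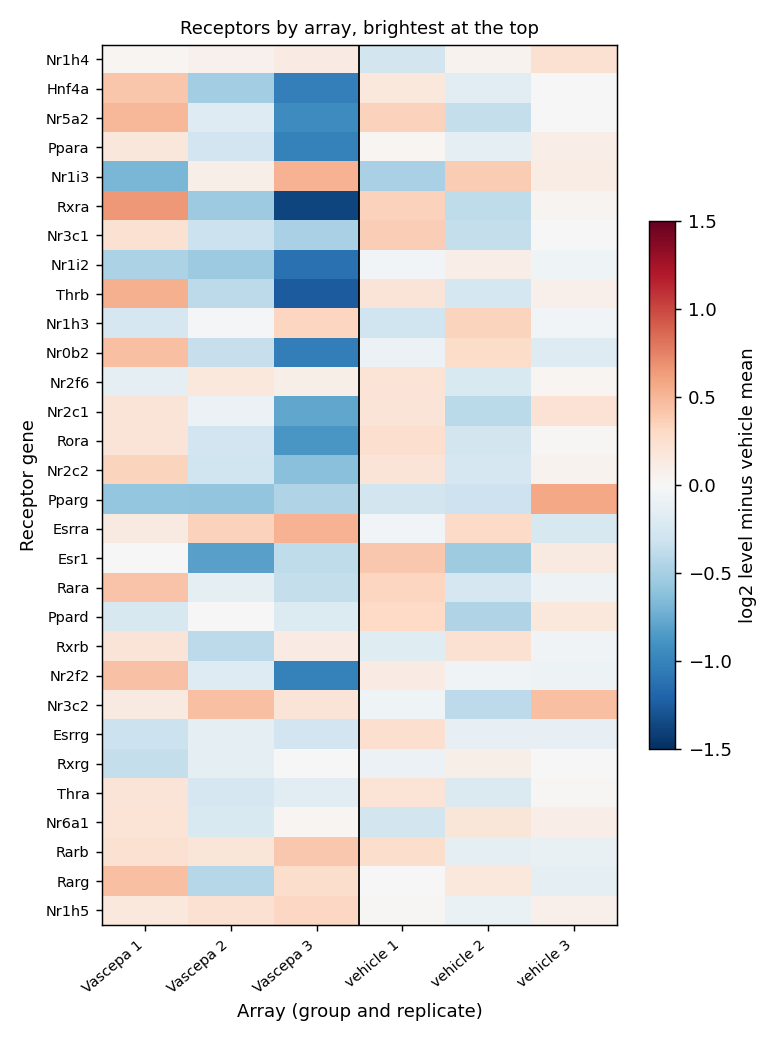
Log2 level of each tested receptor on each array minus its vehicle mean, red above and blue below, with the brightest receptor at the top and the 3 Vascepa arrays left of the 3 vehicle arrays. Blue gathers on Vascepa replicate 3 among bright receptors. Nr1i2, Pparg and Esrrg lie below their vehicle mean on all 3 Vascepa arrays, as does Rxrg, barely so on Vascepa replicate 3.

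**Figure D4:**
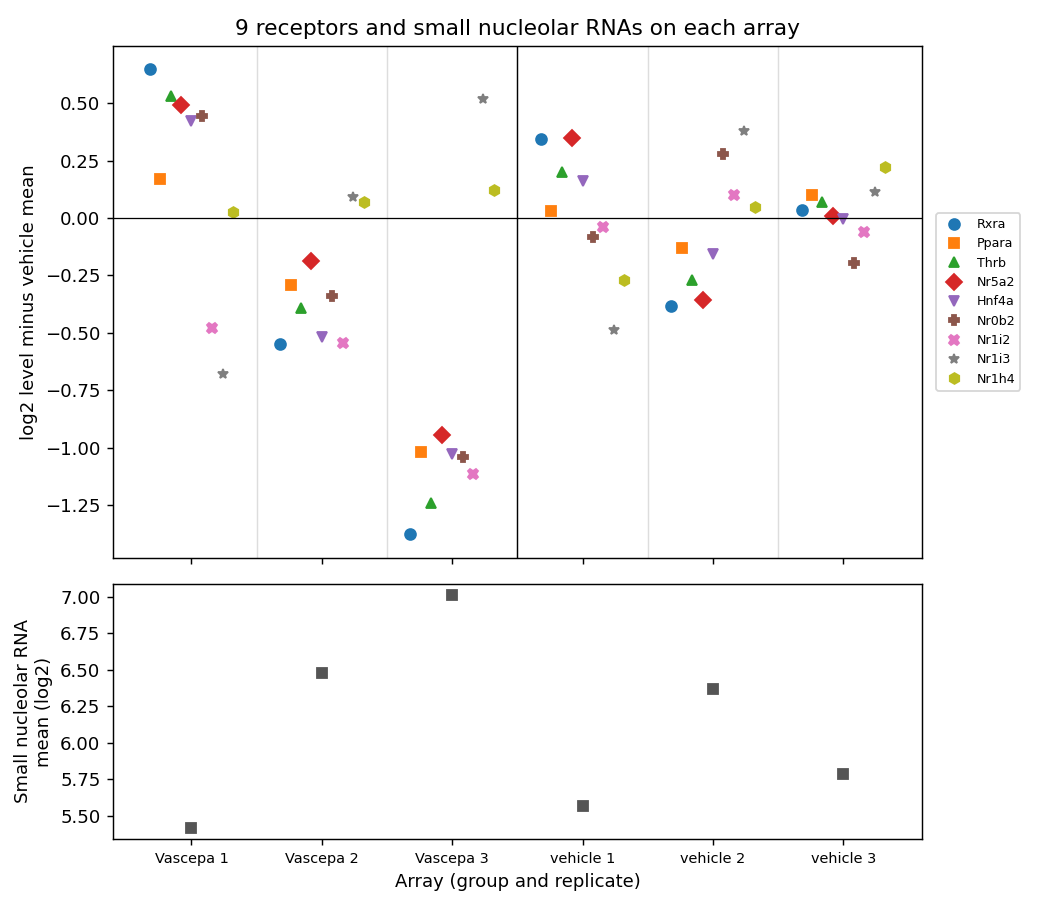
Upper panel, 9 receptors on each array as log2 level minus the vehicle mean, and lower panel, the mean log2 level of 75 small nucleolar RNA probes. Rxra is highest on Vascepa replicate 1 and lowest on Vascepa replicate 3, where the small nucleolar RNAs are highest at 7.01.

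Genes of the proteins that receptors recruit ranked the Vascepa arrays in the same order. Of 11 coactivators 10 were lower and 1 higher, with a median of −0.25, led by Carm1, an arginine methyltransferase (−0.29 ± 0.27), and Ppargc1a, PGC-1 alpha (−0.29 ± 0.28). Their median lay at 0.46, −0.32 and −0.71 on Vascepa arrays 1 to 3, against 0.38, −0.47 and 0.13 on vehicle arrays 1 to 3. All 7 tested corepressors of 9 listed were lower, with a median of −0.24, led by Hdac3 (−0.37 ± 0.22) and Tbl1xr1 (−0.35 ± 0.36). Of all genes tested 60.1% were lower, and of those with a mean level of 5 or more 74.9%. In neither list did a gene reach an unadjusted p under 0.05. Among 15 other receptors of the family 8 were tested, 3 lower and 5 higher, with a median of 0.08, led by Nr2e1 (0.37 ± 0.24) and Esr2 (0.32 ± 0.21).

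**Figure D5:**
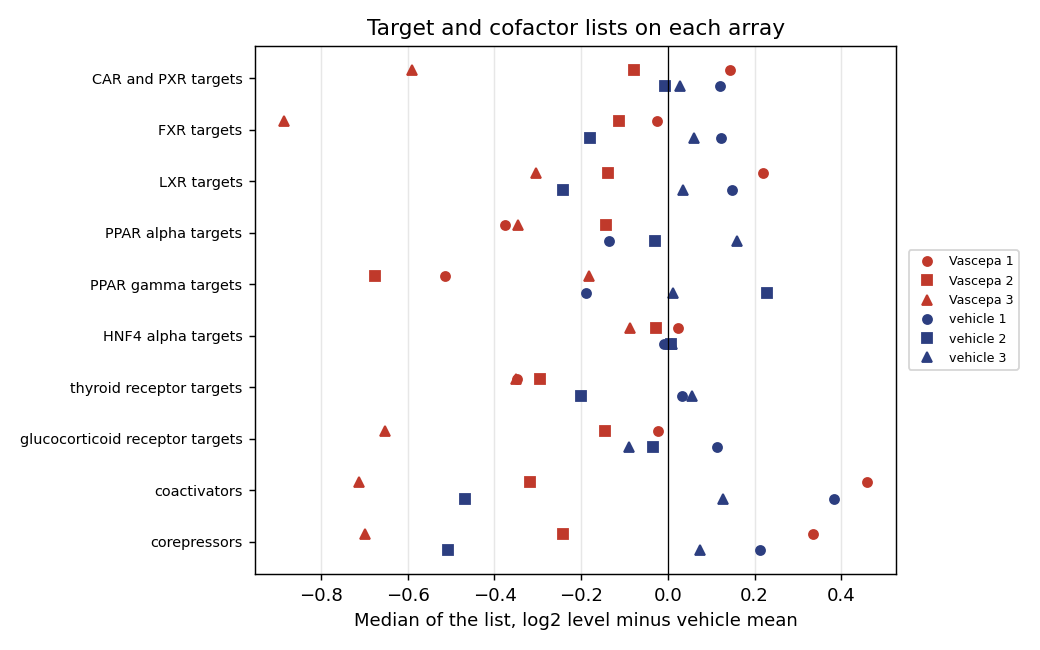
Median log2 level minus vehicle mean of each target or cofactor list, 1 point per array, Vascepa in red above vehicle in blue. For PPAR alpha targets the 3 Vascepa points lie left of the 3 vehicle points, the nearest of them almost touching, while for coactivators the groups interleave.

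Markers of other liver cells were read beside the receptors, since several receptors are also expressed outside hepatocytes. Of 8 Kupffer cell markers 7 were lower and 1 higher, with a median of −0.16, led by Vsig4 (−0.53 ± 0.18) and Cd68 (−0.54 ± 0.20). At an unadjusted p under 0.05, 3 were lower, where 1.64% of all genes were. The 8 markers were chosen with earlier results of these data known. Their mean log2 level was 5.64, 5.89 and 6.04 on Vascepa arrays 1 to 3, against 6.16, 6.08 and 6.08 on vehicle arrays 1 to 3. All Vascepa arrays lay below all vehicle arrays, but this mean rose over Vascepa arrays 1 to 3 and nearly reached the vehicle arrays. Taken singly, 3 of 8 markers separated, all lower, where 5.11% of all genes did. Of the receptors, Nr1i2, Pparg and Esrrg separated lower and Nr1h5 higher. On Vascepa arrays 1 to 3 Nr1i2 read 6.60, 6.54 and 5.96, Pparg 4.87, 4.86 and 4.999, and Esrrg 3.56, 3.74 and 3.59. The part of Kupffer cells in the receptor values was not tested. Sinusoidal endothelial markers were lower in 6 of 8 (median −0.091; Pecam1 −0.43, Oit3 −0.44), stellate cell markers in 6 of 7 (median −0.13; Hgf −0.44, Ecm1 −0.34). Bile duct markers were lower in 1 of 4 (median 0.083; Sox9 −0.43, Krt7 0.30) and adipocyte markers in 1 of 3 (median 0.051; Plin1 0.30, Retn −0.06). Hepatocyte markers were lower in 6 of 8 with a median of −0.056, led by Serpinc1 (−0.24) and F2 (−0.21).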

How the data were processed

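The authors deposited 1 log2 expression level per probe and array, for 41345 probes on 6 arrays. Per the submitters' processing notes, Affymetrix Expression Console and RMA were used, in versions not given in the sources used here. The RMA method removes background, makes the intensity distributions of the arrays equal and averages probes on the log2 scale, so it compresses differences of dim genes. In the deposited values the median of all probes still ran from 2.615 on vehicle replicate 1 to 2.81 on Vascepa replicate 3. Names came from the platform annotation. It gave 1 symbol to 23521 probes, several to 1814 and none to 16010, and 23328 were matched by gene ID to a RefSeq gene table of GRCm38.p6. Nr1h2 had no entry in the platform annotation.

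The deposited values were compared, Vascepa minus vehicle, by lmFit and eBayes of limma 3.58.1 (R 4.3.3) with no covariate. Probes with 1 symbol and a mean no lower than the median probe, 2.65, were kept, and a gene was read from its brightest probe. P-values were adjusted over 13493 genes by the Benjamini-Hochberg method with a threshold of 0.05. The fit was tested on simulated data with 200 changed genes and noise of equal spread on every array. It recovered 31.2% of genes at a log2 difference of 1 and 96.7% at 2, and 6.37% of its calls were false. Arrays of unequal quality were not simulated. An exact permutation test of 3 against 3 arrays cannot go below 0.1 and was not used. Precision is limited by the number of arrays. The files used here give no scan dates or slides, so batches were not tested.

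The receptors, target lists and cell markers were chosen with earlier results of these data known, and lists are described by counts and medians without a test. Each direction count of a list stands beside 60.1% of all genes lower, or 74.9% at a mean level of 5 or more. Array values are given for receptors with an unadjusted p under 0.05 or separated groups, and for 12 receptors whatever their values. Of each list the 2 genes with the smallest p are named. The alternatives varied the filter, normalization, prior, weights, covariates, probe rule and arrays used. The labels name no covariate, and the fit reported did not pair the samples by replicate number.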

Additional observations from a re-analysis of the deposited data

How the results depend on the processing

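Nr1i2 kept its direction and an unadjusted p under 0.05 in all 16 alternatives, with differences between −0.83 and −0.51. The filters, the priors, the replicate block and the probe rule left each receptor's difference as it was, so they could not turn a sign. All alternatives draw on the same 6 arrays, and among the receptors the smallest p in the fit reported was that of Nr1i2. Its adjusted p passed the threshold under array quality weights alone. Of the 30 receptors, 13 kept their sign in every alternative and 17 did not. Where signs turned, the cause was not tested. The number of genes at an unadjusted p under 0.05, 362 in the fit reported, was 757 with no intensity filter, 106 with a 75th percentile filter, 5902 with array weights and 824 with the small nucleolar RNA level as a covariate, and 141 to 2018 when 1 array was left out. Genes past the adjusted threshold numbered 4100 with array weights (30.4%), among them 10 receptors, and 3 with the covariate (Orm3, Cyp2b13 and Cyp2b9). The weights put 39.5 on Vascepa replicate 2 and at most 2.33 on any other array, and their estimate did not converge. Of genes at an unadjusted p under 0.05, 39.0% were higher in the fit reported, 16.9% with each array centred on its median, 13.2% with the 75th percentile filter and 54.3% with no filter. Centring moved the median of all genes to −0.14, and 25 of 30 receptors were then lower, against 13 of 30 with the covariate. Quantile normalization again moved the median of all genes to −0.0044, with 19 of 30 receptors lower and a receptor median of −0.0755. The median over receptors was 0.0173 with the covariate. Same-numbered deviations correlated at r = 0.61, 0.11 and −0.13 for replicates 1 to 3, while Vascepa replicate 3 correlated best with vehicle replicate 2, at 0.57. With 3 arrays per group these values cannot settle whether some numbers mark a shared batch. Of the receptors 60.0% were highest on a replicate 1 array, where 39.7% of all genes were. Among receptors with a mean level of 5 or more it was 58.8%, beside 47.1% of all genes at that level. The replicate block gave 438 genes at an unadjusted p under 0.05 and 0 past the adjusted threshold, and not every array correlated best with its own number.

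Differences that turned sign were, with array weights, Nr1h4 −0.043, Nr1i3 0.046, Nr6a1 −0.27 and Rarg −0.34. With centring they were Nr1h3 −0.062, Nr1h4 −0.0042, Nr2f6 −0.045 and Nr6a1 −0.075, and with quantile normalization again Nr1i3 0.064, Nr6a1 −0.045, Rara 0.073 and Rxrb 0.075. With the covariate they were Nr1h3 −0.15, Nr2c1 0.022, Nr2c2 0.036, Nr2f2 0.031, Nr3c1 0.015, Nr5a2 0.13, Rara 0.18, Rxra 0.039, Thra 0.049 and Thrb 0.020. Leaving out 1 array gave ranges of −0.69 to 0.053 (Nr0b2), −0.14 to 0.18 (Nr1h3), −0.063 to 0.18 (Nr1h4), −0.30 to 0.30 (Nr1i3), −0.43 to 0.056 (Nr2c1), −0.46 to 0.017 (Nr2c2), −0.60 to 0.12 (Nr2f2), −0.081 to 0.13 (Nr2f6), −0.57 to 0.15 (Nr5a2), −0.14 to 0.12 (Nr6a1), −0.25 to 0.14 (Rara), −0.085 to 0.36 (Rarg), −0.96 to 0.049 (Rxra), −0.13 to 0.16 (Rxrb), −0.21 to 0.031 (Thra) and −0.82 to 0.070 (Thrb). Some receptors stayed lower in all of these fits. Their ranges were −0.83 to −0.51 (Nr1i2), −0.77 to −0.049 (Hnf4a), −0.66 to −0.061 (Ppara), −0.70 to −0.25 (Pparg) and −0.37 to −0.00031 (Ppard). Others were −0.41 to −0.016 (Nr3c1), −0.66 to −0.18 (Esr1), −0.32 to −0.13 (Esrrg), −0.24 to −0.067 (Rxrg) and −0.58 to −0.045 (Rora). Those that stayed higher were Nr3c2 (0.063 to 0.49), Esrra (0.21 to 0.48), Rarb (0.20 to 0.41) and Nr1h5 (0.18 to 0.27). Without Vascepa replicate 1, 6 receptors had an unadjusted p under 0.05, Hnf4a, Nr0b2, Nr1i2, Ppara, Rxra and Thrb, all lower, as were 1480 of 13493 genes.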
